A study of Homo sapiens with 3 samples.

Results

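The cytosolic ribosomal protein genes encode the proteins that, together with ribosomal RNA, build the cytoplasmic ribosome. They were taken by symbol, as RPL or RPS followed by a number with an A or X suffix allowed, plus RPSA, RPLP0, RPLP1 and RPLP2. S6 kinases, L-suffixed paralogs such as RPS27L, pseudogenes and Y-linked copies were left out. By this rule RefSeq (GRCh38.p14) holds 77 genes, and 67 of them had a probe set assigned to that gene alone, among 18239 genes with such a probe set on the array. The assignment is that of the array annotation. Whether such probe sets also detect other transcripts, such as those of ribosomal protein pseudogenes, was not checked. The 67 comprised 43 genes of the large 60S subunit and 24 of the small 40S subunit, with 192 probe sets in all. The other 10 were not analysed here as single genes. Each gene was represented by its brightest probe set, and no difference between samples entered the choice.

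Ribosomal protein mRNAs are among the most abundant in any growing cell, and their products are assembled with ribosomal RNA into the subunits. Most of them begin with a 5′ terminal oligopyrimidine (TOP) tract, a C followed by a run of pyrimidines, through which LARP1 and the mTORC1 kinase control their translation. AKT lies upstream of mTORC1, and the S6 kinases of the same pathway phosphorylate the 40S protein RPS6. Arrays measure the amount of mRNA and not its translation. Several of these proteins also have known roles off the ribosome, for example RPL5, RPL11 and RPL23, which bind the p53 regulator MDM2.

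The RNA came from cells labelled GFP-SAS, of the established tongue carcinoma line SAS. All groups received 10 nM of a small interfering RNA (siRNA) for 24 h: the non-targeting siNT in 1 library, siAkt1-22 in 1 library and siAkt1-58 in 1 library. Both siAkt1 reagents are directed against AKT1 and carry the same genotype label, so they formed a group of 2, and the comparison asks how AKT1 knockdown changed the expression profile. Values are RMA log2 expression values, and differences are log2 differences from siNT, of which the single siNT library is part in every case.

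AKT1 read 6.75 with siNT, 3.67 with siAkt1-22 and 3.47 with siAkt1-58. Of the epithelial markers, 3 of 4 measured (KRT5, CDH1 and EPCAM) lay above the filter level of 3.93 and KRT14 did not. Leukocyte markers were above it in 0 of 4 cases, fibroblast markers in 1 of 6 and endothelial markers in 2 of 3, none of these over 4.50 in any library. The siAkt1-22 library stood apart in its poly-A and ACTB controls. Its 24 poly-A spike-in control probe sets lay at a median of -0.56 from siNT (from -1.25 to -0.35), against -0.01 with siAkt1-58. Its 3 ACTB control probe sets were at -3.21 to -4.04, while 3 GAPDH control probe sets were at -0.09 to -0.08. With siAkt1-58 the ACTB controls were at 0.18 to 0.25 and the GAPDH controls at 0.01 to 0.04. The 9 hybridisation control probe sets had medians of -0.04 with siAkt1-22 and 0.08 with siAkt1-58. The part of these shifts in the ribosomal protein values of either library was not tested.

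RefSeq lists a transcription start window for 57 of the 67 genes. At 1 or more of the listed starts, 42 of the 57 (73.7%) had a C followed by at least 4 pyrimidines, against 6.24% of 15843 protein-coding genes. Counted by listed start, the shares were 61.8% of 68 and 4.54% of 22199. When the run could begin up to 5 bases from the start, the gene shares were 86.0% and 28.0%. The windows below show this feature at genes that the results turn on, first those lower with siAkt1-22, then 1 lower with siAkt1-58, then 3 that were higher with both siRNAs. Each shows 10 bases before the listed start and 20 from it, on the coding strand, 5′ to 3′. Capitals mark the longest stretch of a C and at least 4 pyrimidines that begins within 5 bases of the start. Such a stretch, in the windows and in the counts, can be the end of a longer pyrimidine run from upstream, as in RPL19.
RPS24, chr10:78033853-78033882, plus strand: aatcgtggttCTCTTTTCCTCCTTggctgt
RPL10A, chr6:35468391-35468420, plus strand: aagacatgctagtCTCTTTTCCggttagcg
RPL13A, chr19:49487598-49487627, plus strand: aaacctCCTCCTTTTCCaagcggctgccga
RPL3, chr22:39319604-39319633, minus strand: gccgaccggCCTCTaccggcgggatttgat
RPL19, chr17:39200313-39200342, plus strand: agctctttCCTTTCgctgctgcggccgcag
RPS7, chr2:3575250-3575279, plus strand: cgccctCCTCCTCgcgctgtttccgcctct
RPLP1, chr15:69452808-69452837, plus strand: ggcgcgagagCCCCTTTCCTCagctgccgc
RPL21, chr13:27251548-27251577, plus strand: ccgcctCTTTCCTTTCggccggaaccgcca
RPS19, chr19:41860245-41860274, plus strand: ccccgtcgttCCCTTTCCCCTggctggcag

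Exactly at a listed start, the run was present in 2 of the 5 genes that have an entry among those at least 1.5-fold lower with siAkt1-22, and in 40 of the 52 other members. Within 5 bases it was present in 5 of 5 and 44 of 52. RPS24, the lowest gene with siAkt1-22, had a run of 14 bases at its start, and RPS19, the gene highest with siAkt1-22, had a run of 11. Genes with a run exactly at a listed start (n = 42) had a median difference of 0.01 with siAkt1-22 and 0.07 with siAkt1-58. Genes with a listed start but no run there (n = 15) had medians of -0.08 and 0.07. In the 250 bases before the start, the ETS-type motif CCGGAAG, on either strand, occurred in 35.1% of the 57 genes and 14.0% of all protein-coding genes. GGGCGG, the SP1-type motif, occurred in 59.6% and 62.1%, and TATAAA in 7.02% and 11.9%. The E-box CACGTG, which MYC can bind, occurred in 5.26% and 9.73%. These are matches of letters in the windows.

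The ribosomal protein genes lay at the top of the array's range in all 3 libraries. In log2 units their medians were 12.4 (siNT), 12.4 (siAkt1-22) and 12.5 (siAkt1-58), against 6.52, 6.55 and 6.53 for all 12779 genes tested. Of the 67, 60 were among the brightest 1% of genes and 64 among the brightest 2%. They made up 56 of the 100 brightest genes and 53 of the 93 genes with a mean of at least 12. RPS2, a protein near the mRNA entry of the small subunit, had the highest mean of all genes, at 13.23 with siNT and 13.25 in each siAkt1 library. In the siNT library alone MT2A, a metallothionein, read higher, at 13.37. RPS10 (mean 12.88) and RPL37 (mean 12.85) followed among the members.

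At the lower end stood RPL35A, RPL36 and RPL27A. RPL27A read 3.76 with siNT, 4.02 with siAkt1-22 and 4.27 with siAkt1-58 in its only probe set, near the filter level, so its values carry little signal. RPL36 had a mean of 8.94 and RPL35A of 9.98. Levels of different probe sets depend on their sequences as well as on mRNA, so the order of genes is an order of signals. Signals this bright can understate differences, which was not tested here.

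**Figure D1:**
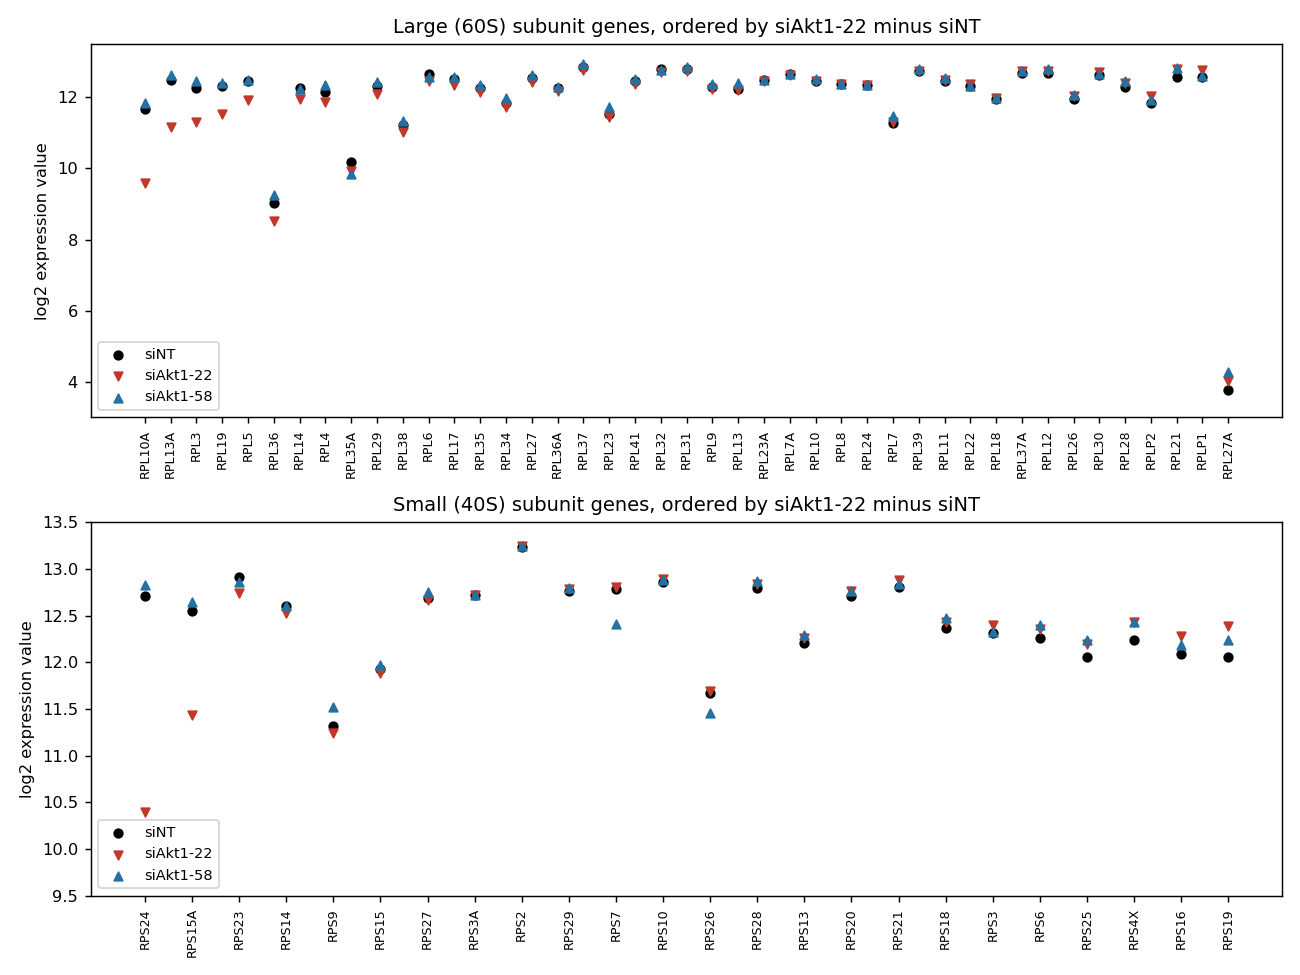
Log2 expression value (vertical axis) of each of the 67 ribosomal protein genes in the 3 libraries, large subunit above and small subunit below, each ordered by the difference siAkt1-22 minus siNT; every symbol is 1 library, and the panels have different scales. Most genes have all 3 symbols together near 12 to 13, and RPL10A, RPL13A, RPL3, RPL19, RPS24 and RPS15A have a siAkt1-22 symbol well below the other 2.

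Most members kept close to siNT. With both siRNAs 53 of 67 (79.1%) lay within 0.25 of siNT. The shares were 40.7% of all genes tested and 26.8% of the brightest 10% of genes (log2 8.93 and above). That group had a median level of 9.81 and the members one of 12.34, so the 2 are not matched in level. How far signals near the top of the range understate differences was not tested. The median difference was -0.01 with siAkt1-22 and 0.07 with siAkt1-58, while that of all genes tested was 0 with each. The interquartile range was 0.18 and 0.12 for the members, against 0.45 and 0.33 for all genes tested and 0.62 and 0.44 for the brightest 10%. No member was at least 1.5-fold lower or higher than siNT with both siRNAs, where 3.58% of all genes tested were lower and 3.2% higher (2.41% and 2.69% of the brightest 10%).

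With the brightest probe set of each gene, the libraries differed in the kind of departure. With siAkt1-22, 6 of 67 members (8.96%) were at least 1.5-fold lower than siNT, a share below the 12.0% of all genes tested and the 14.3% of the brightest 10%. None was 1.5-fold higher, against 12.3% of all genes tested and 10.1% of the brightest 10%. At the 2-fold limit 4 members (5.97%) were lower, the same share as all genes tested (5.97%) and close to the 5.87% of the brightest 10%. With siAkt1-58, 0 of 67 passed 1.5-fold in either direction, against 8.74% lower and 6.58% higher among all genes tested, and 8.11% and 5.32% among the brightest 10%. With the brightest probe set the share of members lower with siAkt1-22 was thus below the background. It was above it with the second brightest probe set, at 10 of 51 (19.6%) against 14.0%, and with the mean over probe sets, at 8 of 67 (11.9%) against 9.56%. The side of the background therefore turned with the choice of probe set, and the count by itself is no result about these genes. The 0 with siAkt1-58 is likewise of the brightest probe sets. Dimmer probe sets of RPL31 (0.90), RPL32 (0.62), RPS23 (0.74), RPL28 (1.27) and RPS29 (1.28) were at least 1.5-fold higher with siAkt1-58. Those of RPS14 (-0.74 and -0.66) were at least 1.5-fold lower. The matching share of all genes was not counted.

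**Figure D2:**
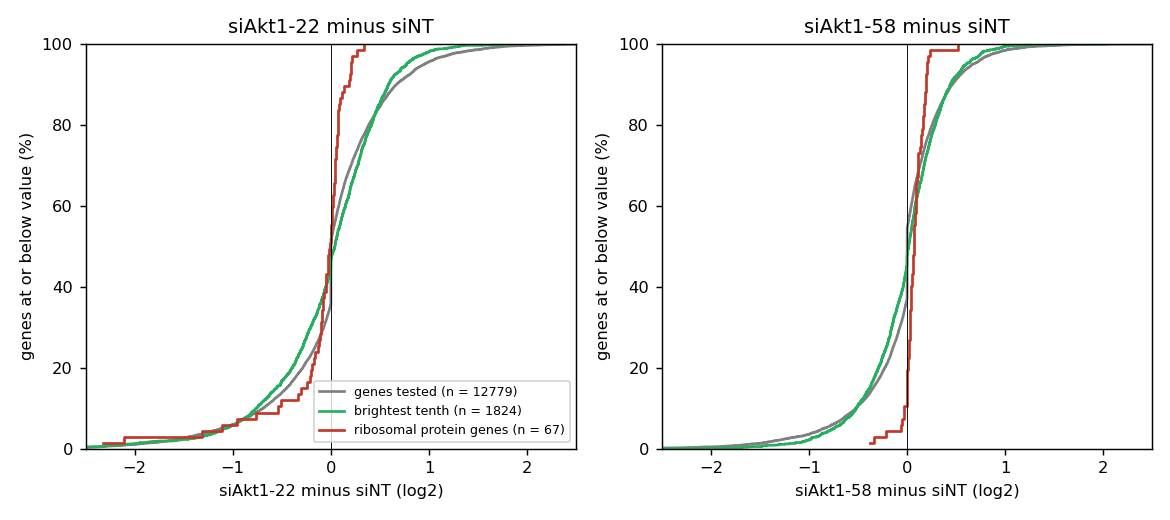
Cumulative share of genes (percent, vertical axis) at or below each log2 difference from siNT (horizontal axis, shown from -2.5 to 2.5) for the ribosomal protein genes, the brightest 10% of genes and all genes tested, siAkt1-22 on the left and siAkt1-58 on the right, 1 library each. The line of the ribosomal protein genes climbs steeply near 0 in both panels, with a tail to the left, down to -2.32, for siAkt1-22.

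RPS24, a small subunit protein required to process the precursor of 18S ribosomal RNA, was the lowest member with siAkt1-22. It read 12.71 with siNT, 10.39 with siAkt1-22 and 12.82 with siAkt1-58. The siAkt1-22 library was 5.01-fold lower than siNT and the siAkt1-58 library slightly above it, at 0.11. RPL10A, the protein of the L1 stalk through which spent tRNA leaves the ribosome, read 11.68, 9.58 and 11.83 in the same order, 4.30-fold lower with siAkt1-22. In both genes siAkt1-22 alone was low.

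RPL13A, often used as a reference gene and known for a role in interferon-gamma dependent silencing of translation, read 12.48 with siNT, 11.16 with siAkt1-22 and 12.64 with siAkt1-58. It was 2.49-fold lower with siAkt1-22 and at 0.16 with siAkt1-58. RPS15A, a core protein of the small subunit, read 12.55, 11.44 and 12.64. RPL3, which lies close to the peptidyl transferase centre, read 12.26, 11.31 and 12.46. RPL19, which helps bridge the subunits, read 12.31, 11.54 and 12.40. These 3 were 2.16-fold, 1.94-fold and 1.70-fold lower with siAkt1-22, and all 3 were above siNT with siAkt1-58. The shifts of the spike-in and ACTB controls given above are of the same siAkt1-22 library. Its GAPDH controls (-0.09 to -0.08) and hybridisation controls (median -0.04) lay close to siNT. Any link of the control values to these genes was not tested.

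Just short of the 1.5-fold limit came RPL5 and RPL36. RPL5, which carries 5S ribosomal RNA and binds MDM2, read 12.47, 11.93 and 12.50, and RPL36 read 9.03, 8.52 and 9.25. RPL14 (-0.33) and RPL4, a protein of the exit tunnel (-0.30), were next. The 6 genes lowest with siAkt1-22 therefore comprised 4 of the 60S and 2 of the 40S subunit.

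**Figure D3:**
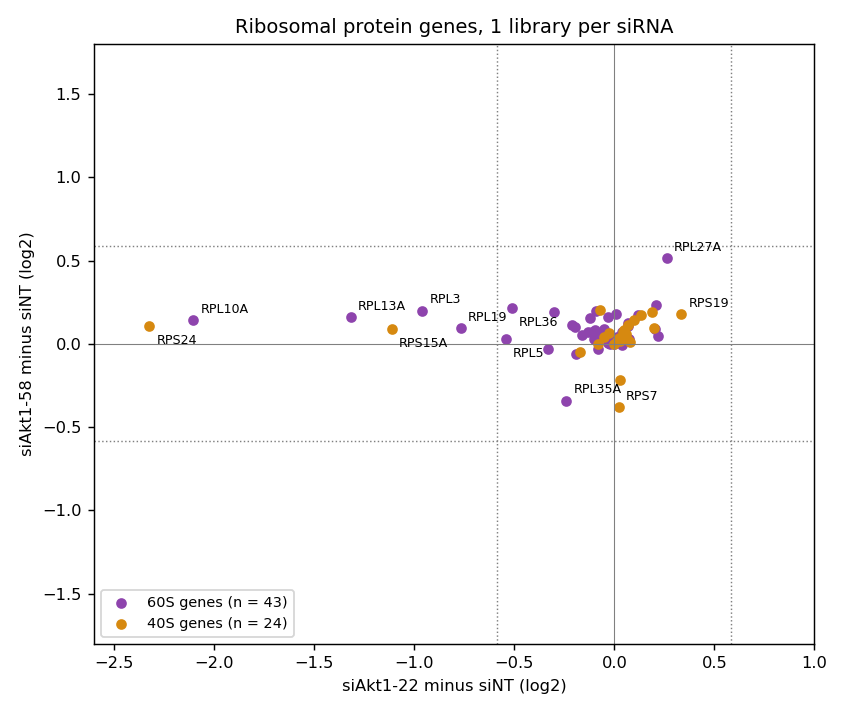
Log2 difference from siNT of the 67 ribosomal protein genes with siAkt1-22 (horizontal axis) and with siAkt1-58 (vertical axis), 1 library each, coloured by subunit; dotted lines mark 1.5-fold. Both axes share the siNT library. The 6 genes left of the dotted line lie between 0.09 and 0.20 on the vertical axis.

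Other probe sets of the same genes gave like values. The second RPS24 probe set with a mean of at least 6 was at -2.67 with siAkt1-22 and 0.16 with siAkt1-58, and the second for RPL10A at -2.25 and 0.14. For RPL13A the second read -1.30 and 0.50. RPS15A had 4 such probe sets, from -1.38 to -1.06 with siAkt1-22. Those of RPL3 were at -0.96 and -0.80, and those of RPL19 at -0.77 and -0.96. Probe sets of 1 gene share the library and often overlap in sequence, so they repeat the measurement without replicating the treatment.

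Some dimmer probe sets, picked after their values were seen, showed a wider gap. RPL36 was at -0.51 in its brightest probe set but at -0.81 and -1.05 in the others, and RPL5 at -0.54 and -0.87. All 6 RPL14 probe sets with a mean of at least 6 were lower with siAkt1-22, from -0.60 to -0.33. RPL41, the shortest ribosomal protein, was at -0.09 in its brightest probe set of all (12.45 with siNT) and -0.80 in a dimmer one (9.76 with siNT). Taking for each gene the dimmest probe set with a mean of at least 6, 11 of 66 members (16.7%) were at least 1.5-fold lower with siAkt1-22, against 16.8% of all genes under that choice, and the 11 included the 6 named above. The gap was not wider in every gene, as the second RPL3 probe set (-0.80 against -0.96) shows.

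**Figure D4:**
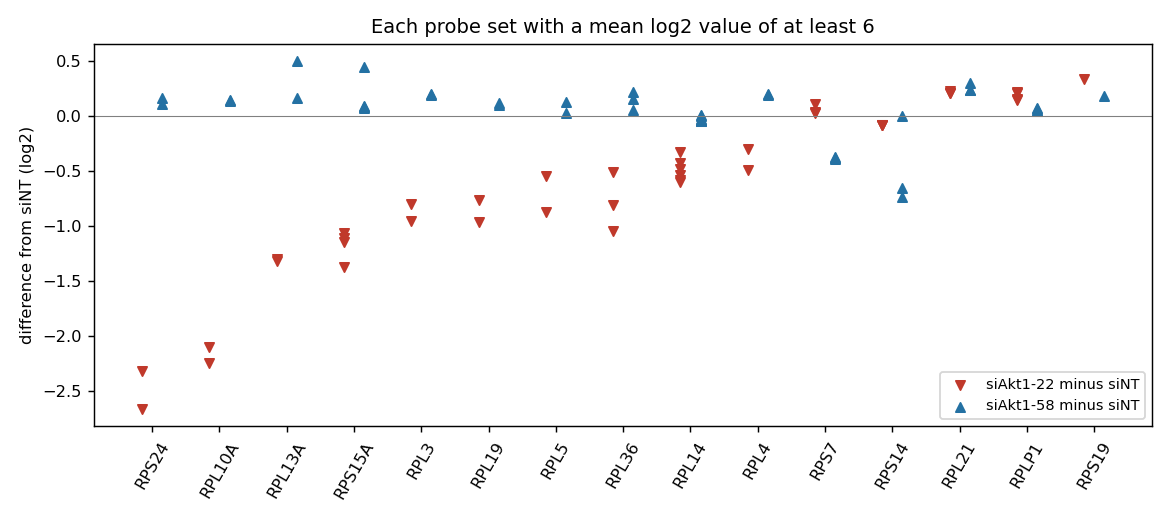
Log2 difference from siNT (vertical axis) of every probe set with a mean log2 value of at least 6, for 15 ribosomal protein genes, with siAkt1-22 as red and siAkt1-58 as blue triangles; each triangle is 1 probe set in 1 library. Probe sets of RPS24 and RPL10A lie below -2 with siAkt1-22 only, and those of RPS7 near -0.4 with siAkt1-58 only.

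A few members were lower with siAkt1-58. RPS7, a small subunit protein that also binds MDM2, read 12.79 with siNT, 12.81 with siAkt1-22 and 12.41 with siAkt1-58. Its 3 probe sets were at -0.38, -0.39 and -0.38 with siAkt1-58 and between 0.02 and 0.11 with siAkt1-22, so siAkt1-58 alone was low. RPL35A read 10.17, 9.93 and 9.83, lower with both siRNAs, but a dimmer probe set was at 0.07 and 0.11. A bright probe set shared by RPL35A and ZNF391 read 12.45, 12.45 and 12.46, so the lower values rest on 1 probe set. RPS26, which lines the mRNA exit channel, read 11.67, 11.70 and 11.45, and a dimmer probe set was at 0.48 and 0.19.

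RPS14 showed how much the choice of probe set matters. Its brightest probe set read 12.61 with siNT, 12.52 with siAkt1-22 and 12.61 with siAkt1-58. Its other 2, at 10.80 and 10.56 with siNT, were at -0.08 with siAkt1-22 and at -0.74 and -0.66 with siAkt1-58. RPS29, a small zinc-binding protein, had differences of 0.02 and 0.03 in the brightest probe set, whereas a dim one (6.27 with siNT) gave 1.12 and 1.28. RPS23 was at -0.17 and -0.05 but 0.77 and 0.74 in its dimmest (8.26 with siNT), and RPL28 at 0.12 and 0.17 but 0.45 and 1.27. RPS23 and RPS29 were thereby the 2 of 66 members at least 1.5-fold higher with both siRNAs in the dimmest probe set (background 4.45%). Of the 49 members with several probe sets at a mean of at least 6, 41 had all of them on the same side of siNT, or at it, with siAkt1-22, and 39 with siAkt1-58.

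On the upward side the libraries differed again. With siAkt1-58, 55 of 67 members (82.1%) were above siNT, against 45.6% of all genes tested and 52.1% of the brightest 10%. With siAkt1-22, 30 of 67 (44.8%) were above siNT, against 48.5% of all genes tested and 53.5% of the brightest 10%. Below siNT with siAkt1-58 were 8 of 67 (11.9%), against 37.0% and 45.3%. Genes exactly tied with siNT count on neither side. Such ties were more common among all genes tested than among the members or the brightest 10%, which lowers both shares of all genes. Above siNT with both were 27 of 67 (40.3%), against 30.9% and 35.3%, and below it with both were 5 of 67 (7.46%), against 21.4% and 27.5%. These differences were small, with a median of 0.07 with siAkt1-58, and there is no second siNT library to set them against. The hybridisation controls of the siAkt1-58 library had a median of 0.08, and the part of such a shift in these values was not tested.

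RPS19, the ribosomal protein most often mutated in Diamond-Blackfan anaemia, was the highest member with siAkt1-22. It read 12.05, 12.39 and 12.23 in the order siNT, siAkt1-22 and siAkt1-58. The mean difference was 0.26 ± 0.11 (SD, n = 2). RPL21 read 12.58, 12.78 and 12.81, and its 3 probe sets ran from 0.21 to 0.30 over both siRNAs. RPS4X, the X-linked form of a small subunit protein, read 12.24, 12.43 and 12.43. In each of these genes both siAkt1 libraries were above siNT.

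The other leading members on this side were RPS25 (0.13 and 0.17), RPS16 (0.20 and 0.10), RPL28 and the stalk protein RPLP2 (0.20 and 0.09). RPLP1, its partner in the acidic stalk that recruits elongation factors, read 12.56, 12.78 and 12.61, and its 4 probe sets were all above siNT with both siRNAs. RPS6, the S6 kinase substrate, read 12.26, 12.35 and 12.40. RPL11, which joins RPL5 on 5S ribosomal RNA, read 12.46, 12.50 and 12.53. RPL23 was at -0.09 and 0.19. RPS3A read 12.72 in all 3 libraries.

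The subunits were also read apart. With siAkt1-22, of the 43 large subunit genes 28 (65.1%) were below siNT, with a median of -0.05, and of the 24 small subunit genes 7 (29.2%), with a median of 0.03. In all, 35 of 67 members (52.2%) were below siNT, against 35.7% of all genes tested and 44.7% of the brightest 10%. Ties with siNT, more common among all genes tested, again count on neither side. With siAkt1-58 the medians were 0.07 and 0.06. The difference between the subunits was not tested, since genes are not replicates.

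Set against each other, the siRNAs differed most for RPS24 (-2.43, siAkt1-22 minus siAkt1-58), RPL10A (-2.25), RPL13A (-1.48), RPS15A (-1.20) and RPL3 (-1.16). The members highest in that difference were RPS7 (0.40), RPS26 (0.25), RPLP1 (0.17), RPS19 (0.15) and RPLP2 (0.11). Taking siAkt1-58 as the base, 7 of 67 members (10.4%) were 1.5-fold lower or more with siAkt1-22, against 10.8% of all genes tested and 12.3% of the brightest 10%. None was 1.5-fold higher, against 12.1% and 11.6%.

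Across both siAkt1 libraries together, limma called 0 of 67 members and 0% of the 12779 genes tested. An unadjusted p under 0.05 was found for 2 members (2.99%), RPS4X (adjusted p = 0.614) and RPL21 (adjusted p = 0.623), against 7.47% of all genes tested. Their differences were 0.19 ± 0.02 (SE) and 0.22 ± 0.03 (SE), in the same direction in 2 of 2 siAkt1 libraries. RPS24 had a mean difference of -1.11 ± 1.72 (SD, n = 2), so the spread between the siRNAs exceeded the mean. The fit has 1 residual degree of freedom. Each siAkt1 library had its own siRNA, so the p-values reflect the spread between 2 reagents with 1 library each. Differences between the reagents and technical differences cannot be told apart in that spread. The labels do not say whether the cultures were independent.

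Genes next to the members in the translation machinery were read in the same way. Among ribosomal protein paralogs and other ribosomal genes outside the symbol rule, 8 of 11 were tested, with medians of -0.04 and -0.01. RPL22L1, the paralog of RPL22, read 10.43 with siNT, 7.84 with siAkt1-22 and 9.92 with siAkt1-58. RPL22 itself was at 0.04 and -0.01 in its brightest probe set. Dimmer RPL22 probe sets were at 0.02 and 0.03 with siAkt1-22, and at 0.43 and 0.30 with siAkt1-58. RPL26L1 was at 0.97 and 0.12, RPL39L at -0.07 and -0.80, and RPS27L at 0.19 and 0.08. Among 12 elongation factors and other TOP mRNAs, 0 passed 1.5-fold with either siRNA, and the medians were -0.02 and 0.01. Of all genes tested, 12.0% were lower and 12.3% higher with siAkt1-22, and 8.74% and 6.58% with siAkt1-58. NPM1, a nucleolar chaperone, was at -0.37 and -0.26 and EEF1G at 0.33 and 0.28.

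Of 27 initiation factors tested, 3 were at least 1.5-fold lower with siAkt1-22 (12.0% of all genes tested) and 3 with siAkt1-58 (8.74%), none with both (3.58%), which is close to the background. With siAkt1-58, 1 was 1.5-fold higher (6.58% of all genes tested) and with siAkt1-22 none was (12.3%). The medians were -0.12 with siAkt1-22 and -0.06 with siAkt1-58. The loosely bound EIF3 subunit EIF3J was at -1.40 and -0.44, EIF5 at -0.26 and -0.99, and the helicase EIF4A2 at 0.53 and 0.72. Of 24 ribosomal protein chaperones, S6 kinases and TOP regulators, 3 were 1.5-fold lower with both siRNAs, beside the background of 3.58%. They were the assembly factor TSR1 (-1.89 and -0.65), the kinase RPS6KA5 (-0.88 and -1.12) and LARP4 (-0.63 and -0.67). RPS6KA1 was at 0.52 and 0.34, and RPS6KB1, the S6 kinase downstream of mTORC1, at 0.65 and 0.20. The 73 mitochondrial ribosomal protein genes, which serve a separate ribosome, had medians of 0.09 and -0.12. Among them MRPL23 (0.95 and 0.98) and MRPS10 (0.68 and 0.76) were the 2 of 73 that were 1.5-fold higher with both siRNAs, a share near the 3.2% of all genes tested, and MRPL35 was at -0.42 and -0.64.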

How the data were processed

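Total RNA (10 ng) was labelled with a 3′ in vitro transcription kit for Affymetrix arrays, per the labels' protocols. The authors deposited log2 values, 1 per probe set and array. They name RMA, per the submitters' processing notes, without a version, and the log2 scale was read from the values (2.20 to 13.4). Of 49386 probe sets, 45253 had 1 gene symbol, 1327 several, 2713 were unlisted and 93 were controls. Symbols were updated through Entrez identifiers (45172 matched). The brightest probe set by mean log2 stood for its gene, and the 12779 genes at or above the 30th percentile (3.93) were tested. All 67 members passed that filter. Fold limits were 1.5 and 2, described with no test. Limma 3.58.1 (R 4.3.3; lmFit and eBayes, a two-sided test with Benjamini-Hochberg adjustment across the 12779 genes and a threshold of 0.05) compared both siAkt1 libraries with siNT, and the lone siNT library is assumed to vary like them. The steps were also run on simulated data. The outcome is not given here, so that run is no sign that the fit can detect changes in these arrays. Depth has no counterpart here, and the number of arrays limits precision. Sequences are from RefSeq (GRCh38.p14). Protein length and composition were not used here.

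Members and lists were chosen with earlier results of these data known. The text names AKT1, the 8 lowest and 8 highest members by mean difference, and the 5 highest and 5 lowest in siAkt1-22 minus siAkt1-58. It also names the 3 brightest and 3 dimmest, those past 1.5-fold, and RPL5, RPL11, RPL23, RPS6, RPS7, RPS14, RPS19 and RPL13A. RPLP0 was planned too, but it had no probe set assigned to it alone and has no value here. Of each other list the text names up to 3 genes leading on the same side with both siRNAs and up to 2 on the opposite side. RPL4, RPL14, RPL22, RPL31, RPL32, RPL41, RPS3A, RPS23, RPS29, RPS6KB1 and MT2A fall outside this rule. They were picked with their values in view, as were the limits of 0.25 and of a mean of 12.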

Additional observations from a re-analysis of the deposited data

Results flagged for a closer look

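Probe sets assigned to several genes were left out of the values by gene. Of the 9 that name a ribosomal protein gene, 1 was at least 1.5-fold from siNT. That probe set, shared by RPL13A and the pseudogenes RPL13AP5 and RPL13AP25, read 12.68, 11.43 and 12.80 in the order siNT, siAkt1-22 and siAkt1-58. It is singled out because it lies outside the values by gene and is at -1.25 with siAkt1-22. The 2 probe sets shared by RPS12 and SNORA33 were at -0.01 with siAkt1-22, and at 0.03 and 0.06 with siAkt1-58.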

How the results depend on the processing

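The 6 genes at least 1.5-fold lower with siAkt1-22 kept that difference under each alternative by gene. Their number was 10 of 55 with the second brightest probe set (10 of the 51 past the filter), 11 of 66 with the dimmest probe set of mean log2 at least 6 (an alternative chosen after seeing the data) and 21 of 192 with probe sets as the unit. The 5 members below siNT with both siRNAs became 3 with averaged probe sets, 9 with arrays quantile normalized again, 2 with the dimmest and 18 with probe sets as the unit. Those above with both (27) became 73 with probe sets as the unit, and those above with siAkt1-58 (55) became 147 of 192. At least 1.5-fold from siNT with both siRNAs were 0 as reported, 2 with the dimmest (RPS23 and RPS29, higher) and 2 when each probe set counted alone. The median of siAkt1-22 minus siAkt1-58 was -0.05 as reported and -0.12 with the second brightest probe set. The medians against siNT ran from -0.02 to 0 with siAkt1-22 and from 0.04 to 0.11 with siAkt1-58. Leaving out 1 siAkt1 library gave 8 and 35 members below siNT, 55 and 30 above it, and 0 and 6 at least 1.5-fold from it, without siAkt1-22 and without siAkt1-58 respectively. With 1 library each there is then no residual degree of freedom and no test. Limma called 0 genes under each of the 7 alternatives run, as in the main setting, where 954 had an unadjusted p under 0.05. AKT1 itself, at -3.08 with siAkt1-22 and -3.28 with siAkt1-58, was not called, so the equal counts are no sign of stability. No paired analysis was possible, since 1 siNT library stands against 2 siAkt1 libraries. Whether the brightest signals understate differences was not tested, and 1 siNT library limits all values.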
